A study of Mus musculus with 6 samples.

Results

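The genes described here are 38 genes of macrophages, dendritic cells and Langerhans cells, chosen by name for their place in the myeloid lineage, with earlier results of these samples known. All 38 were found by symbol among the 24063 gene symbols of the tables and all 38 were tested, within 16336 genes tested in all. They were read by RNA-seq in 6 mice, 3 per group. The SA tumors came from PB-Cre+ Smad4L/L ApcL/L males, in which Cre is driven by probasin, an androgen-responsive promoter active in penile epithelium, so that the floxed tumor suppressor genes Smad4 and Apc are recombined there. These tumors of the penis formed without a carcinogen. The WT penis samples were penile epithelium of wild type C57BL/6 mice, and all 6 mice were 5 months old. The strain background of the SA mice is not given, so strain and genotype cannot be told apart if it differs. Both kinds of sample are labelled as penile epithelium, yet all 6 also held stromal and leukocyte RNA, and as these are pieces of tissue a change in the number of cells of a type and a change in RNA per cell cannot be told apart.

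Macrophages are tissue phagocytes maintained by signals through the receptor CSF1R, and monocytes recruited from blood can replace or join them. Dendritic cells take up antigen, move to lymph nodes and present it to T cells, and depend on the receptor FLT3. Langerhans cells are the antigen-presenting cells of squamous epithelium, such as skin and penile epithelium, and carry the lectin langerin. Resident and recruited myeloid cells differ in the lectins and scavenger receptors on their surface.

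The 38 genes did not move together. In SA tumors the C-type lectins that sense fungi and damaged cells (Clec4e, Clec4d and Clec7a), the LPS co-receptor Cd14, the scavenger receptors Msr1 and Marco, the arginase Arg1 and the inhibitory Fc receptor Fcgr2b were higher, while the resident-macrophage receptors Cd163 and Mgl2 and the Langerhans cell lectin Cd207 were lower. The remaining 27 genes passed no call, among them the pan-macrophage genes Csf1r, Cd68, Emr1 and Lyz2 and all 3 chains of complement C1q. A gene was called at an adjusted p under 0.01 in the quasi-likelihood test of edgeR, with Benjamini-Hochberg adjustment over all genes tested, and a stricter call also asked for a 4-fold difference (2 on the log2 scale). Of the 38 genes, 8 were higher and 3 lower, against a background of 20.1% of all tested genes higher and 17.5% lower. The share of these genes called higher, 21.1%, was close to that background, and the share called lower was 7.89%. With the fold criterion 6 were higher (15.8% against 9.41% of all tested genes) and 2 were lower (5.26% against 3.59%). The median log2 fold change was 0.59 over the 38 genes (range -2.83 to 6.32) and 0.03 over all tested genes. In 12 of the 38 genes every SA tumor lay above every WT penis (31.6%, against 32.7% of all tested genes) and in 5 every SA tumor lay below (13.2%, against 30.7%).

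The sequences just upstream of the 3 lectins that rose most and of 2 genes that fell are shown because these genes carry the main contrast. Each line gives 250 bases before a RefSeq transcription start on GRCm38.p6, 5′ to 3′ on the strand of the gene, and capitals mark GAGGAA or its reverse complement TTCCTC, a 6-base core that the myeloid transcription factor PU.1 (the product of Spi1) can bind. Both strands were searched for these letters alone.
Clec4d (chr6:123261857-123262106, plus strand): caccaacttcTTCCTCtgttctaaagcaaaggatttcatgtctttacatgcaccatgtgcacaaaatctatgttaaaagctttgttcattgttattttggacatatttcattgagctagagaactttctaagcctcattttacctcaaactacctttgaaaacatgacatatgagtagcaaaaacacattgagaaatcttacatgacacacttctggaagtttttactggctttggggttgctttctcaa
Clec4e (chr6:123289872-123290121, minus strand): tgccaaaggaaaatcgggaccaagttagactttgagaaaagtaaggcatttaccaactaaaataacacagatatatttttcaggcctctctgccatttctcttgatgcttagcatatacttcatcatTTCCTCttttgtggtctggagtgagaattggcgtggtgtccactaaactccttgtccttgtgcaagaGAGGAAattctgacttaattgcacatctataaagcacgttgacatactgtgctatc
Clec7a (chr6:129472786-129473035, minus strand): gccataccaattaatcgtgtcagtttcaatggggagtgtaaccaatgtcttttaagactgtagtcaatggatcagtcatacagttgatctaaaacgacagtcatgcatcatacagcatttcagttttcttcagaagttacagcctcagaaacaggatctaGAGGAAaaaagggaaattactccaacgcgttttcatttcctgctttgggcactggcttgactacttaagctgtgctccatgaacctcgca
Mgl2 (chr11:70130107-70130356, plus strand): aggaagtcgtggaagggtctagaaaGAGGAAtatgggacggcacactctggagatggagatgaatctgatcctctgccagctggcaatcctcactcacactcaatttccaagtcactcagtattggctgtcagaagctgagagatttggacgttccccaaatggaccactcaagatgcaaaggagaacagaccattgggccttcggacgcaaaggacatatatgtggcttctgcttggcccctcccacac
Cd207 (chr6:83677858-83678107, minus strand): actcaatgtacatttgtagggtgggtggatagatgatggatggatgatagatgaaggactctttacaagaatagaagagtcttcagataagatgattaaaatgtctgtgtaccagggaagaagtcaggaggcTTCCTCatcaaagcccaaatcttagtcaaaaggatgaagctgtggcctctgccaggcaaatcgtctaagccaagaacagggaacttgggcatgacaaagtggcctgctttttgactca
RefSeq entries were at hand for 28 of the 38 genes. GAGGAA was present on either strand in 19 of their 32 upstream stretches (59.4%), against 23.3% of the 32851 stretches of the same length over all genes. Some genes have more than 1 stretch. Counted by gene it was present in 17 of 28 (60.7%), against 25.9% of all genes. It was present in stretches of genes that rose and of genes that fell, as the 5 sequences show. It was absent from those of Fcgr2b, called higher, and Cd163, called lower. A match in letters is a description of the sequence and not of a bound site.

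**Figure D1:**
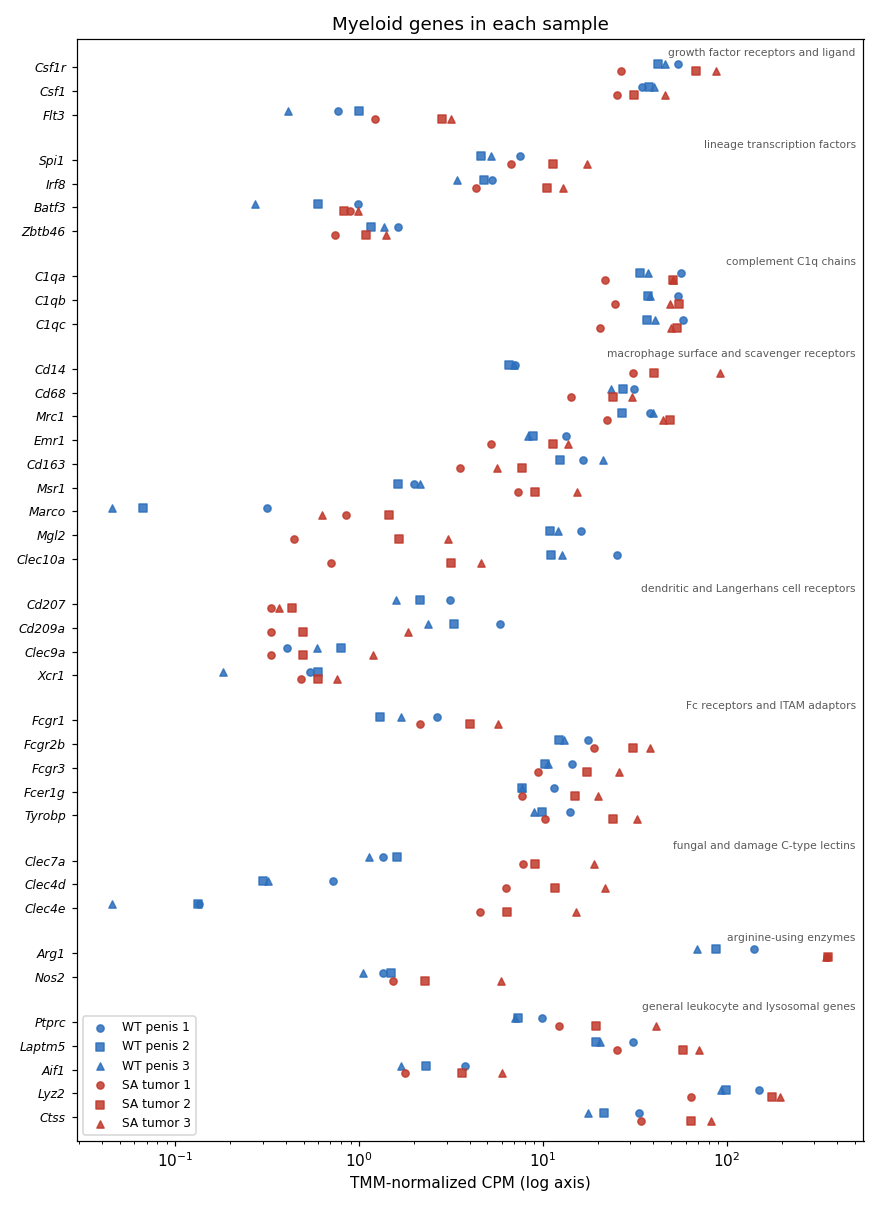
Level of each of the 38 genes in each sample, as TMM-normalized CPM (counts scaled to the library) on a log axis, with SA tumors in red, WT penis in blue and the replicate number given by the marker shape. The Clec4e, Clec4d and Clec7a points of the SA tumors stand clear of the WT points on the right, Mgl2, Clec10a and Cd207 stand clear on the left, and the C1q chains overlap.

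As to the samples as a whole, gene counts per library ran from 23828283 to 110509147, and SA tumor 3 was the deepest, at 4.42 times the median of the other 5. A count of 3 in a library was worth 0.0244 to 0.137 CPM (counts scaled to 1e+06 per library, normalized by edgeR's trimmed mean of M-values, TMM). Smad4, one of the targeted genes, had 36.1 to 46.1 CPM in SA tumors and 61.2 to 72.5 CPM in WT penis (log2 fold change -0.77 ± 0.13 (SE), edgeR adjusted p = 0.00114). Apc, the other, had 194 to 253 CPM in SA tumors and 62.5 to 91.1 CPM in WT penis, so its whole-gene count was higher (1.43 ± 0.17, edgeR adjusted p = 0.000185), and a count over the whole gene does not test a deleted exon. SA tumor 1 stood apart in the genes described here. It was the lowest of the 3 SA tumors in 35 of the 38 genes (92.1%), whereas over all tested genes it was the lowest SA tumor in 5350 of 16336 (32.7%), and it was the lowest of all 6 samples in 18 of the 38 (47.4%, against 20.6% of all tested genes). SA tumor 1 was also the lowest SA tumor in the summed level of 12 of 14 other gene lists. Its summed stromal markers were at 1432 CPM against 3950 and 5093 CPM in the other SA tumors and 7239 to 7841 CPM in WT penis, and summed erythrocyte markers were 19.8 CPM there against 89.7 and 231 CPM. Whether the makeup of the piece had a part in its low myeloid levels was not tested. The calls that this sample ends or adds are given together further on.

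Clec4e, Clec4d and Clec7a encode Mincle, MCL and Dectin-1, lectins that recognise microbial glycolipids, dead cells and fungal beta-glucans and signal through the kinase SYK. They lie on chromosome 6, Clec4d (chr6:123262107-123275268) and Clec4e (chr6:123281789-123289871) as neighbours. Clec4e had 4.53, 6.42 and 15.2 CPM in SA tumors 1, 2 and 3 and 0.136, 0.134 and 0.0456 CPM in WT penis 1, 2 and 3. The WT values came from 3, 4 and 1 counts, so Clec4e was at the edge of detection in WT penis and well above it in every tumor (log2 fold change 6.32 ± 0.66, edgeR adjusted p = 0.00011), the largest change of the 38 genes. Clec4d had 6.28, 11.7 and 21.9 CPM in the SA tumors and 0.723, 0.300 and 0.319 CPM in WT penis. The groups were far apart, with a log2 fold change of 4.93 ± 0.59 (edgeR adjusted p = 0.000296). For Clec7a the 3 tumors had 7.77, 9.10 and 19.0 CPM and the WT samples 1.36, 1.60 and 1.14 CPM. Every tumor exceeded every WT sample, and the log2 fold change was 3.13 ± 0.38 (edgeR adjusted p = 0.000232). All 3 lectins were highest in SA tumor 3 and lowest, among tumors, in SA tumor 1, and each passed the call in all 16 alternative settings.

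These lectins are made by neutrophils as well as by monocytes and macrophages, and neutrophil genes were far higher in the same tumors. Summed neutrophil markers were 1514 to 2576 CPM in SA tumors and 96.5 to 204 CPM in WT penis. Of 9 tested markers 7 were higher, against 20.1% of all tested genes. S100a8 and S100a9, the calgranulin subunits of neutrophils and of squamous cells under stress, had means of 783 against 46.0 CPM and 1049 against 36.1 CPM. They made up most of the sum in every tumor, so the sum is mostly a reading of S100a8 and S100a9. Csf3r, the G-CSF receptor of neutrophils, had 37.0 ± 23.4 CPM (SD) against 1.53 ± 0.41 CPM, and Cxcr2, their chemokine receptor, had 12.0 against 1.58 CPM. Of the 14 markers matched by symbol only 9 had counts enough to be tested, and 2 of the 9 had no call. The Clec4d count per Csf3r count was 0.328 to 0.410 in SA tumors and 0.170 to 0.410 in WT penis, and these ranges overlap. By contrast the Clec4e count per Clec4d count was 0.551 to 0.722 in SA tumors and 0.143 to 0.444 in WT penis, the latter from 1 to 4 Clec4e counts a library. The part of neutrophils in the lectin signal was not tested.

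Among surface and scavenger receptors, genes rose, fell and passed no call side by side. Cd14, the co-receptor that hands bacterial LPS to TLR4, had 30.9, 40.5 and 92.1 CPM in the SA tumors and 7.10, 6.54 and 7.02 CPM in WT penis. The WT values were nearly the same in the 3 mice and the lowest tumor was above them all (log2 fold change 2.99 ± 0.43, edgeR adjusted p = 0.00115), although the adjusted p rose to 0.0108 without WT penis 2 and 0.011 without WT penis 3, which ends the call (range over all 16 alternatives 3.69e-18 to 0.011). Msr1, the class A scavenger receptor for modified lipoproteins, had 7.32, 9.04 and 15.4 CPM against 1.99, 1.64 and 2.14 CPM. It was higher in each tumor, by a log2 fold change of 2.48 ± 0.31 (edgeR adjusted p = 0.00027). Marco, a related receptor for bacteria and particles, had 0.855, 1.46 and 0.633 CPM against 0.316, 0.0668 and 0.0456 CPM, from 7, 2 and 1 counts in WT penis. The groups did not overlap (2.77 ± 0.66, edgeR adjusted p = 0.00756), yet Marco was called in only 10 of the 15 alternatives that gave it a value, with an edgeR adjusted p of 0.0109 without SA tumor 1, 0.0249 without SA tumor 2, 0.0379 without WT penis 2 and 0.0303 without WT penis 3 (range over the alternatives 0.00114 to 0.0379).

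Cd163, the receptor by which macrophages clear hemoglobin, had 3.53, 7.71 and 5.65 CPM in the SA tumors and 16.6, 12.5 and 21.2 CPM in WT penis. Each tumor was below each WT sample, by a log2 fold change of -1.57 ± 0.30 (edgeR adjusted p = 0.0025). Mgl2, a galactose-type lectin of resident macrophages and of a dermal dendritic cell subset, had 0.446, 1.66 and 3.06 CPM against 16.2, 10.9 and 12.1 CPM. The tumors reached at most 3.06 CPM where the lowest WT sample had 10.9 CPM (-2.83 ± 0.55, edgeR adjusted p = 0.00395). Its close paralog Clec10a, near it on chromosome 11, had 0.706, 3.18 and 4.60 CPM against 25.3, 11.1 and 12.8 CPM. The groups did not overlap there either, but Clec10a was not called (-2.47 ± 0.63, edgeR adjusted p = 0.0155). It was called lower by DESeq2, by limma-voom and in edgeR without SA tumor 1 or SA tumor 3 (adjusted p = 0.0028, 0.00892, 0.00283 and 0.00836, range over the alternatives 0.0028 to 0.0704). Mgl2 and Clec10a share some sequence, and 9.4% and 10.3% of their 76-base windows, the read length, are found in both, so a small part of their reads could have been split between them. The call of Cd163 was lost without WT penis 1 or WT penis 3 (edgeR adjusted p = 0.0125 and 0.011, range over the alternatives 3.81e-07 to 0.0125). Among the fits that left out 1 sample, that of Mgl2 was lost without SA tumor 2 or any 1 of the WT samples (0.022 without SA tumor 2 and 0.0133 to 0.0171 without a WT sample, range over the alternatives 0.000134 to 0.022), so Cd207 was the only gene called lower without WT penis 1 or WT penis 3.

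Cd68, Mrc1 and Emr1 mark macrophages broadly: a lysosomal glycoprotein, the mannose receptor and the surface protein F4/80. Cd68 had 14.3, 24.0 and 30.4 CPM in the SA tumors and 31.2, 27.3 and 23.5 CPM in WT penis, Mrc1 had 22.4, 49.4 and 45.1 CPM against 38.4, 27.1 and 39.7 CPM, and Emr1 had 5.24, 11.4 and 13.6 CPM against 13.4, 8.85 and 8.29 CPM. In each of the 3 the groups overlapped, SA tumor 1 was the lowest of all 6 samples, and the log2 fold changes were -0.25 ± 0.26, 0.16 ± 0.30 and 0.00 ± 0.34 (edgeR adjusted p = 0.445, 0.684 and 0.999). Levels of these receptors relative to one another differed between the groups. The Mrc1 count per Cd163 count was 6.35 to 7.98 in SA tumors and 1.88 to 2.31 in WT penis, and the Cd14 count per Cd68 count was 1.69 to 3.03 against 0.228 to 0.299, pairs chosen after their values were seen and given without a test.

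The C1q chains, encoded next to each other on chromosome 4 (C1qa at chr4:136895916-136898844) and made mainly by resident macrophages, start the classical complement pathway. C1qa had 21.7, 51.0 and 51.0 CPM in the SA tumors and 56.8, 33.8 and 37.3 CPM in WT penis. C1qb had 24.6, 55.1 and 49.3 CPM against 54.6, 37.6 and 38.2 CPM, and C1qc had 20.6, 54.0 and 49.7 CPM against 57.6, 36.9 and 41.0 CPM. SA tumor 1 was the lowest sample for all 3 chains and WT penis 1 the highest for C1qa and C1qc, and the log2 fold changes were -0.04 ± 0.35, -0.01 ± 0.30 and -0.12 ± 0.36 (edgeR adjusted p = 0.931, 0.978 and 0.804). None of the 3 was called in any of the 16 alternatives, in which their adjusted p was 0.256 or more. Their counts kept nearly 1 ratio in every library, with C1qb per C1qa at 0.966 to 1.13 in SA tumors and 0.962 to 1.11 in WT penis. Set against this macrophage gene, Mgl2 had 0.0205 to 0.0600 counts per C1qa count in SA tumors and 0.286 to 0.325 in WT penis. As Mgl2 was called lower and C1qa had no call, this ratio restates those results and is given without a test.

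**Figure D2:**
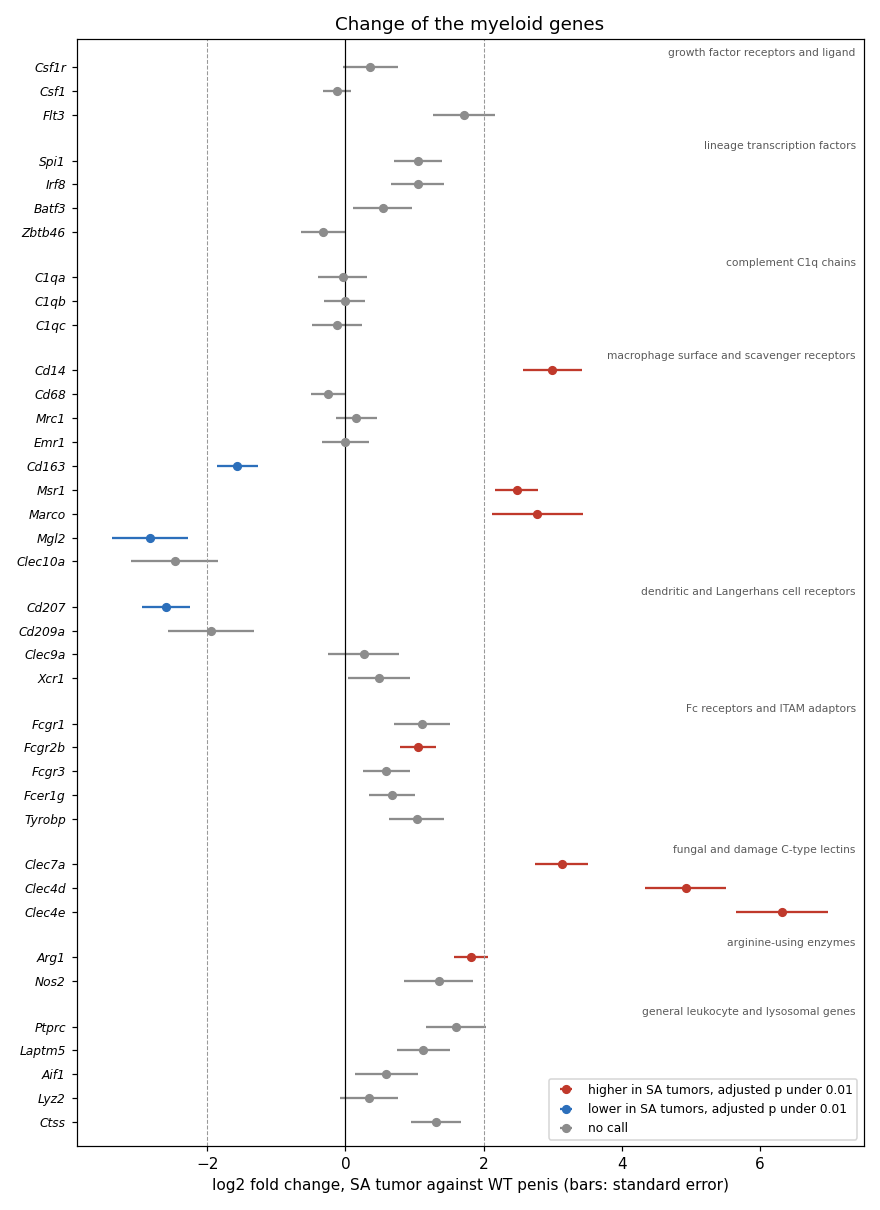
Log2 fold change of each gene, SA tumor against WT penis (x axis), with bars of 1 standard error, red for genes higher and blue for genes lower at an edgeR adjusted p under 0.01, gray for the rest, and dashed lines at the fold threshold. Changes ran from -2.83 for Mgl2 to 6.32 for Clec4e, with the C1q chains between -0.12 and -0.01.

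The dendritic and Langerhans cell receptors gave 1 call. Cd207 (langerin, which forms the Birbeck granules of Langerhans cells; chr6:83671207-83677857) had 0.334, 0.430 and 0.365 CPM in the SA tumors and 3.12, 2.14 and 1.59 CPM in WT penis. The tumors, read from only 9, 13 and 45 counts, were alike and all below WT penis. The log2 fold change was -2.59 ± 0.35 (edgeR adjusted p = 0.000398), and the call held in all 15 alternatives that gave a value. Cd209a, the DC-SIGN homolog of monocyte-derived dendritic cells, had 0.334, 0.497 and 1.85 CPM against 5.83, 3.27 and 2.37 CPM. No tumor reached the WT range, and the difference missed the threshold (-1.95 ± 0.62, edgeR adjusted p = 0.0304). DESeq2 called it lower (adjusted p = 0.00106), as did edgeR without SA tumor 3, at a log2 fold change of -3.17 (edgeR adjusted p = 0.00117, range over the alternatives 0.00106 to 0.105). Clec9a and Xcr1, which mark the cross-presenting type 1 dendritic cells, ranged from 0.334 to 1.19 CPM and from 0.483 to 0.755 CPM in SA tumors and from 0.407 to 0.801 CPM and 0.182 to 0.601 CPM in WT penis. Both overlapped between groups (0.26 ± 0.51 and 0.48 ± 0.45, edgeR adjusted p = 0.694 and 0.392). At these low levels the changes were near or below their standard errors, which neither shows nor excludes a difference of this size. Clec9a also shares exon sequence with Clec1b on the same strand. Epithelial markers also differed, in both directions, with a sum of 15559 to 18269 CPM in SA tumors and 41064 to 46897 CPM in WT penis. Of 8 markers 2 were higher and 4 lower, against 20.1% and 17.5% of all tested genes. Most of that sum was Krt10, a keratin of differentiating layers, at 6373 against 24984 CPM, while Krt8, a keratin of simple epithelium, had 220 against 1.55 CPM and Epcam, an epithelial adhesion protein, 177 against 34.7 CPM. Krt5, a keratin of the basal layer, had 3284 ± 269 against 7614 ± 182 CPM, and Krt14, its partner, had 5669 ± 861 against 7942 ± 1607 CPM, with overlap (edgeR adjusted p = 0.0504). The part of these differences in the Cd207 result was not tested.

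Csf1r, the receptor for CSF1 and IL-34 on which macrophages and Langerhans cells depend, had 26.8, 67.9 and 88.1 CPM in the SA tumors and 54.5, 42.5 and 46.1 CPM in WT penis. The WT samples lay inside the wide range of the tumors (0.36 ± 0.40, edgeR adjusted p = 0.485). Its ligand gene Csf1 had 25.5, 31.5 and 46.2 CPM against 34.4, 37.7 and 40.3 CPM, again with overlap (-0.12 ± 0.20, edgeR adjusted p = 0.649). Flt3, the growth factor receptor of dendritic cells and their precursors, had 1.23, 2.81 and 3.15 CPM against 0.769, 1.00 and 0.410 CPM. All tumors were above all WT samples, and the change was just short of the call (1.72 ± 0.45, edgeR adjusted p = 0.0123; range over the alternatives 0.00135 to 0.0437). An exon of Csf1r overlaps the antisense gene Hmgxb3, and the strand setting of the counting was not given in the sources used here.

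The wider colony-stimulating factor and FLT3 axis, counted with Csf1, Csf1r and Flt3, had 4 of 11 tested genes higher and 2 lower. Over all tested genes 20.1% were higher and 17.5% lower. Csf3, which encodes the neutrophil growth factor G-CSF, had means of 2.74 CPM in SA tumors and 0.0969 CPM in WT penis (log2 fold change 4.68 ± 0.62, edgeR adjusted p = 0.000364), and Csf2rb, the shared beta chain of the GM-CSF receptor, had 41.8 and 13.9 CPM. Flt3l, the ligand of FLT3, was lower, at 7.14, 11.1 and 16.0 CPM in SA tumors and 44.4, 40.5 and 43.4 CPM in WT penis (-1.89 ± 0.26, edgeR adjusted p = 0.000502). Il34, the keratinocyte-derived second ligand of CSF1R, was picked out after its values were seen and had 17.0 ± 3.5 CPM against 34.4 ± 0.66 CPM (-1.02 ± 0.16, edgeR adjusted p = 0.000844). Without SA tumor 1 the axis had 7 genes higher, and without SA tumor 2 or any 1 of the WT samples it had 2, with 2 lower in each case.

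The 4 lineage transcription factors passed no call with all 6 samples. Spi1 (PU.1, required for all myeloid cells) had 6.73, 11.3 and 17.4 CPM in the SA tumors and 7.50, 4.64 and 5.24 CPM in WT penis, and Irf8, its partner in monocytes and dendritic cells, had 4.31, 10.5 and 12.8 CPM against 5.29, 4.81 and 3.42 CPM. In both only SA tumor 1 lay within the WT range (1.05 ± 0.35 and 1.04 ± 0.38, edgeR adjusted p = 0.033 and 0.0473). Without SA tumor 1 both were called, and DESeq2 called Spi1 (adjusted p = 0.00524, range over the alternatives 0.00329 to 0.123). Batf3, needed for type 1 dendritic cells, had 0.828 to 0.983 CPM against 0.273 to 0.995 CPM, and Zbtb46, a factor of conventional dendritic cells, had 0.743 to 1.40 CPM against 1.17 to 1.63 CPM. Both overlapped (0.54 ± 0.43 and -0.32 ± 0.32, edgeR adjusted p = 0.314 and 0.43).

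The Fc receptors bind antibody and, with FcRgamma (Fcer1g) and DAP12 (Tyrobp), signal through ITAM motifs to SYK. Fcgr2b, the inhibitory receptor, had 18.9, 30.8 and 38.5 CPM in the SA tumors and 17.5, 12.3 and 13.03 CPM in WT penis. Every tumor was above every WT sample, SA tumor 1 only just, and the call was made at the very threshold (1.05 ± 0.26, edgeR adjusted p = 0.00998). It was called in 4 of 16 alternatives, and of the fits that left out 1 sample only the one without SA tumor 1 kept the call (range of the adjusted p over the alternatives 0.000234 to 0.0495). Fcgr1, the high-affinity receptor, had 2.16, 4.04 and 5.71 CPM against 2.67, 1.30 and 1.69 CPM, and Fcgr3, the activating low-affinity receptor, had 9.48, 17.3 and 26.0 CPM against 14.4, 10.2 and 10.7 CPM. Fcer1g had 7.73, 15.0 and 20.0 CPM against 11.6, 7.74 and 7.75 CPM, and Tyrobp had 10.3, 24.0 and 32.5 CPM against 14.1, 9.88 and 8.98 CPM. In these 4 genes SA tumors 2 and 3 were above every WT sample while SA tumor 1 was not, and the log2 fold changes were 1.10 ± 0.41, 0.59 ± 0.34, 0.67 ± 0.34 and 1.03 ± 0.40 (edgeR adjusted p = 0.0484, 0.178, 0.128 and 0.0668). Fcgr2b and Fcgr3 share 6.98% and 7.23% of their 76-base windows, 92 of these windows with each other and, for Fcgr2b, the rest with other genes, and Fcgr2b overlaps an antisense transcript.

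Downstream of these receptors, 9 of 16 tested ITAM and CARD9 signalling partners were higher, against 20.1% of all tested genes. Their summed level was 334 to 434 CPM in SA tumors and 198 CPM in each WT sample. Syk, the kinase itself, had means of 100 and 23.0 CPM (2.13 ± 0.11, edgeR adjusted p = 3.19e-06), Fgr, a SRC-family kinase of myeloid cells, 10.7 and 1.78 CPM, Lcp2, an adaptor, 7.46 and 1.55 CPM, and Pik3cg, a lipid kinase of leukocytes, 12.6 and 2.90 CPM. Syk had 96.9, 91.9 and 112 CPM in SA tumors 1, 2 and 3. Epithelial cells can also express Syk, and the part of each cell type in its level was not tested. The count fell to 4 without WT penis 2 or WT penis 3, and was 6 without SA tumor 2 or WT penis 1. Among 11 tested classical complement and Fc receptor partners 1 was called, the neonatal Fc receptor gene Fcgrt, lower at 26.8 against 74.0 CPM (-1.46 ± 0.33, edgeR adjusted p = 0.00812), where 17.5% of all tested genes were lower. Their sum was 180 CPM in SA tumor 1, 681 and 918 CPM in the other tumors and 1165 to 1218 CPM in WT penis, and without SA tumor 1 the list had 4 of 12 tested genes higher and 3 lower. No gene of it was called without SA tumor 2 or any 1 of the WT samples.

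Arg1 and Nos2 use the same substrate, arginine, and are textbook markers of opposed macrophage states, though other cells, keratinocytes included, also make arginase. Arg1 had 350, 355 and 346 CPM in the SA tumors and 141, 87.6 and 69.1 CPM in WT penis. The tumors had a mean of 351 CPM with an SD of 4.28 CPM, all above WT penis, with a log2 fold change of 1.82 ± 0.24 (edgeR adjusted p = 0.00049), which is under the fold criterion. This evenness set Arg1 apart from Ptprc, which ran from 12.2 to 41.1 CPM over the same tumors, so that the Arg1 count per 100 Ptprc counts went from 842 in SA tumor 3 to 2875 in SA tumor 1. Nos2 had 1.52, 2.28 and 5.94 CPM against 1.36, 1.50 and 1.05 CPM. The groups touched without overlapping (1.35 ± 0.50, edgeR adjusted p = 0.0492). SA tumor 3 was far above the other tumors, and without it the log2 fold change was 0.54 (edgeR adjusted p = 0.179, range over the alternatives 0.00947 to 0.179). Of 9 other arginine metabolism genes 4 were higher, against 20.1% of all tested genes. They were the arginine-making enzymes Ass1 (129 and 24.7 CPM) and Asl (47.4 and 13.7 CPM), the second arginase Arg2 (5.10 and 1.63 CPM) and Gch1 (19.3 and 7.52 CPM), which makes the cofactor of nitric oxide synthase.

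The general leukocyte and lysosomal genes give the scale of the whole compartment. Ptprc (CD45, on all leukocytes) had 12.2, 19.5 and 41.1 CPM in the SA tumors and 9.85, 7.34 and 7.06 CPM in WT penis, and Ctss, the cathepsin that trims the class II invariant chain, had 34.1, 64.4 and 81.8 CPM against 33.6, 21.6 and 17.6 CPM. In both every tumor was above every WT sample and edgeR called neither (1.60 ± 0.44 and 1.31 ± 0.37, edgeR adjusted p = 0.0187 and 0.0211), whereas DESeq2 called both. Laptm5, a lysosomal protein of leukocytes, had 25.4, 58.0 and 70.8 CPM against 31.1, 19.4 and 20.5 CPM. Aif1, an actin-binding protein of macrophages, had 1.78, 3.64 and 5.97 CPM against 3.75, 2.30 and 1.69 CPM, and Lyz2, their lysozyme, had 64.0, 176 and 194 CPM against 150, 99.2 and 92.8 CPM. In the latter 3 SA tumor 1 lay within or below the WT range, and for Aif1 SA tumor 2 as well (1.13 ± 0.39, 0.59 ± 0.46 and 0.35 ± 0.42, edgeR adjusted p = 0.0454, 0.308 and 0.526). A share of 5.8% of the 76-base windows of Lyz2 is also found in Lyz1.

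Counted against Ptprc within each library, which sets aside the overall leukocyte level, 22 of the other 37 genes were below WT penis in every SA tumor (59.5%, against 61.4% of all tested genes), and 5 were above in every tumor (13.5%, against 6.89%). The 5 were Cd14, Msr1, Clec7a, Clec4d and Clec4e. Per 100 Ptprc counts there were 37.2, 32.9 and 36.9 Clec4e counts in the SA tumors and 1.38, 1.82 and 0.645 in WT penis, and 51.5, 59.8 and 53.2 Clec4d counts against 7.34, 4.09 and 4.52. For both, the values of the 3 tumors lay close together on this scale. C1qa had 178, 262 and 124 counts per 100 Ptprc counts in the SA tumors and 576, 461 and 528 in WT penis, with every tumor below. Ptprc is also present on neutrophils, mast cells and lymphocytes, so this scale is not one of macrophages alone.

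Leaving out SA tumor 1 raised the number of genes called higher from 8 to 19 of 38 (50% against 19.6% of all tested genes in that fit), and the number called lower from 3 to 4 (10.5% against 15.4%). SA tumor 1 is set apart here because it was the lowest SA tumor in 35 of the 38 genes. Leaving it out thus raises the tumor means of these genes by that choice, and the counts are a description and not a test. The genes added were Csf1r, Ctss, Fcer1g, Fcgr1, Fcgr3, Flt3, Irf8, Laptm5, Nos2, Ptprc, Spi1 and Tyrobp above and Clec10a below, and Marco lost its call. Laptm5, Ptprc, Tyrobp, Ctss and Irf8 then had log2 fold changes of 1.44, 1.91, 1.36, 1.59 and 1.37 (edgeR adjusted p = 0.000608, 0.00112, 0.00113, 0.00115 and 0.00126). Flt3, Spi1 and Csf1r had 2.01, 1.32 and 0.71 (edgeR adjusted p = 0.0022, 0.00329 and 0.00533), and Clec10a had -2.05 (edgeR adjusted p = 0.00283). Nearest to the threshold were Fcer1g, Fcgr1, Nos2 and Fcgr3, at 0.96, 1.39, 1.67 and 0.88 (edgeR adjusted p = 0.00732, 0.00875, 0.00947 and 0.00989), with the remaining 2 tumors assumed to vary like the WT samples. Over all 16 alternatives the adjusted p of Tyrobp ranged from 0.00113 to 0.213 and that of Ptprc from 4.71e-05 to 0.0867. The C1q chains, Cd68, Mrc1, Emr1, Aif1 and Lyz2 stayed without a call in this fit.

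**Figure D3:**
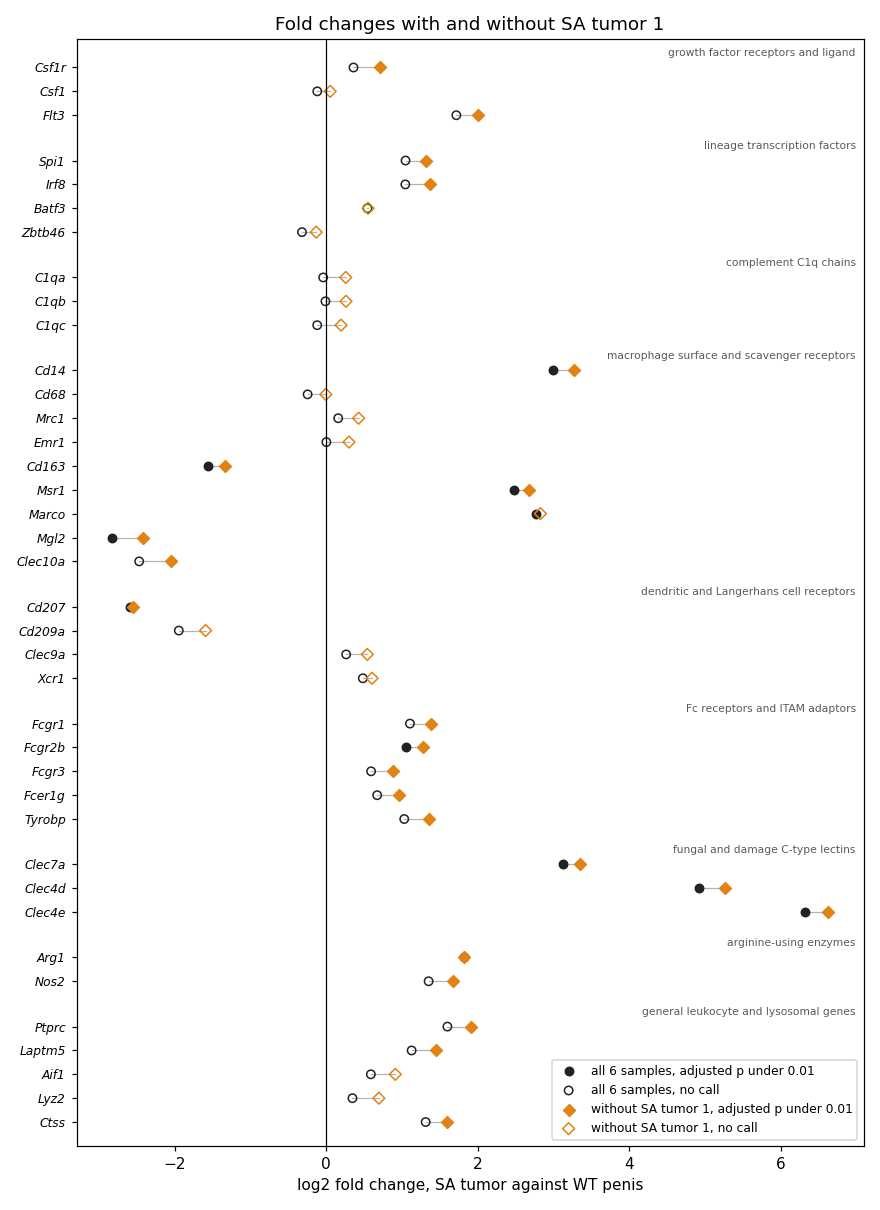
Log2 fold change of each gene, SA tumor against WT penis, with all 6 samples (circles) and without SA tumor 1 (diamonds), filled where the edgeR adjusted p was under 0.01. Without SA tumor 1, 19 genes are filled on the right and 4 on the left, against 8 and 3 with all samples. SA tumor 1 was singled out as the lowest SA tumor in 35 of the 38 genes.

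Related genes outside the 38 were read from lists of each program. With all 6 samples, their counts of calls stand against 20.1% of all tested genes higher and 17.5% lower. Of 19 tissue-resident macrophage genes 12 were lower and 2 higher, with a summed level of 467 to 648 CPM in SA tumors and 822 to 927 CPM in WT penis. The eosinophil chemokine gene Ccl24 (0.104 and 1.99 CPM, -4.06 ± 0.44, edgeR adjusted p = 0.000123) and the lectins Cd209b (0.125 and 2.40 CPM), Cd209f (0.458 and 5.10 CPM) and Cd209d (0.435 and 4.43 CPM), close relatives of one another, fell furthest. The number higher was 1 without SA tumor 2, WT penis 2 or WT penis 3, and the number lower was 7 without WT penis 3, 8 without WT penis 1 and at least 9 in the other fits that left out 1 sample. Of 19 monocyte and inflammatory macrophage genes 13 were higher and 6 had no call. Among the latter, Ccr2 (0.79 ± 0.54, edgeR adjusted p = 0.263) and Ly6c2 (0.37 ± 0.57, edgeR adjusted p = 0.613) overlapped between groups, both picked out after their values were seen. Without WT penis 2 the list had 10 genes higher, and at least 11 in the other fits that left out 1 sample. It had 1 lower without SA tumor 1 or SA tumor 3. The list summed to 356 to 730 CPM in SA tumors and 231 to 258 CPM in WT penis, with 1 gene dominating each group. Spp1 alone had 230, 468 and 377 CPM in SA tumors 1, 2 and 3, and the part of each cell type in its level was not tested. Gpnmb, picked out after its values were seen, had 174, 207 and 217 CPM in WT penis 1, 2 and 3. It was below these in every tumor, at 27.7, 75.0 and 86.8 CPM, without a call (-1.65 ± 0.40, edgeR adjusted p = 0.0127). Trem1, an amplifier of monocyte and neutrophil activation, had 9.75 and 0.0898 CPM (6.67 ± 0.60, edgeR adjusted p = 4.77e-05), Spp1, encoding osteopontin, 358 and 4.27 CPM, Mmp12, the macrophage elastase, 30.8 and 0.879 CPM, and Slfn4, an interferon-induced myeloid gene, 16.0 and 0.508 CPM. Trem2, a lipid receptor that pairs with DAP12, was picked out after its values were seen and had 5.09, 10.8 and 11.1 CPM in SA tumors and 2.03, 2.07 and 1.50 CPM in WT penis (2.27 ± 0.33, edgeR adjusted p = 0.000596).

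Of 26 further dendritic and Langerhans cell genes 10 were higher, 2 were lower and 14 had no call. The 4 with the largest changes were the lymph node homing receptor Ccr7 (3.22 and 0.165 CPM, 4.28 ± 0.34, edgeR adjusted p = 2.25e-05), the actin bundler Fscn1 (128 and 12.96 CPM, 3.31 ± 0.16, edgeR adjusted p = 2.78e-06), Cd83, a surface protein of mature dendritic cells (16.3 and 1.70 CPM) and Runx3, a factor of Langerhans cells and T cells (26.7 and 2.09 CPM). These 4 were not low in SA tumor 1, where Ccr7 had 3.57 CPM and Fscn1 127 CPM. Fscn1 and Runx3 are also expressed by other cells, tumor epithelium included, and the part of each cell type in the levels of these 4 genes was not tested. Irf4, the factor of type 2 dendritic cells, was picked out after its values were seen and was lower, at 0.446, 0.960 and 1.98 CPM against 6.33, 8.55 and 9.48 CPM (-2.74 ± 0.45, edgeR adjusted p = 0.00123).

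Markers of other leukocytes were read beside these. With all 6 samples, the counts of calls below stand against 20.1% of all tested genes higher and 17.5% lower. Summed mast cell markers were 53.2 to 165 CPM in SA tumors and 45.7 to 66.0 CPM in WT penis, with 3 of 10 higher and 1 lower, with 7 higher without SA tumor 1 and none lower without SA tumor 1, SA tumor 2, WT penis 1 or WT penis 2. Among their defining genes Kit had 13.2 against 3.94 CPM, while Cpa3 (10.7 and 5.81 CPM) and Cma1 (12.6 and 7.28 CPM) overlapped between groups. Summed T and NK cell markers were 31.7 to 34.8 CPM against 6.47 to 11.8 CPM, with 2 of 7 higher, Cd5 and Lck, and 5 without a call. Cd5 was the largest part of the sum in every tumor, at 23.9, 21.8 and 14.7 CPM against 2.94, 3.04 and 2.69 CPM. The sum is therefore mostly a reading of Cd5. Cd3e overlapped between groups, at 0.632, 1.16 and 3.01 CPM against 0.949, 0.634 and 0.410 CPM. Summed B cell markers were 1.38 to 3.89 CPM against 1.05 to 1.49 CPM, with 1 of 2 higher, and with none when WT penis 1 or WT penis 3 was left out. Stromal markers had 4 of 10 lower, with 1 lower without SA tumor 2 or WT penis 3, 2 lower without WT penis 1 or WT penis 2, and 5 lower and 2 higher without SA tumor 1.

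**Figure D4:**
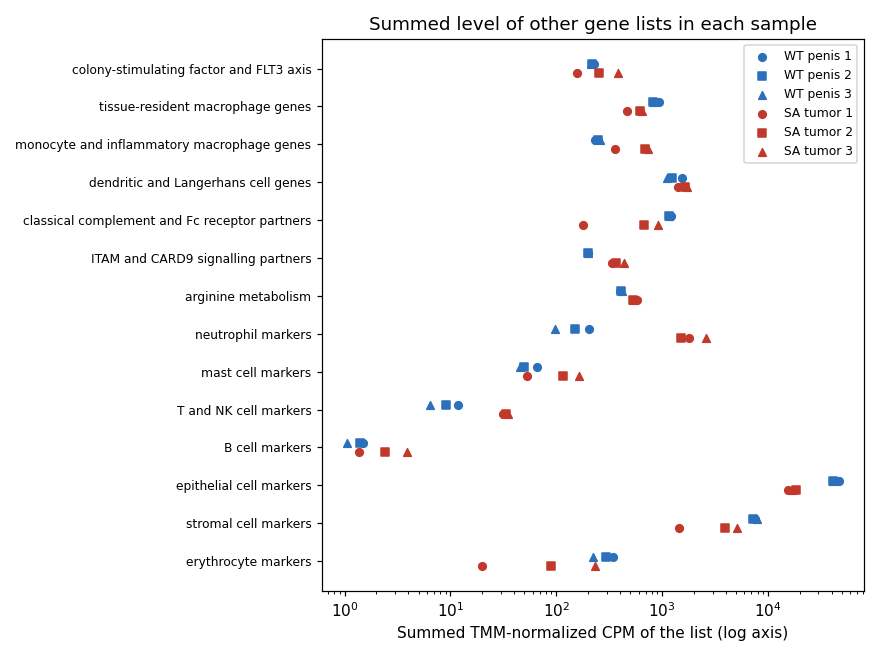
Summed TMM-normalized CPM of each other gene list in each sample (log axis; the first list also holds Csf1, Csf1r and Flt3), with SA tumors in red and WT penis in blue. Neutrophil markers were 1514 to 2576 CPM in SA tumors, mostly S100a8 and S100a9, and 96.5 to 204 CPM in WT penis. SA tumor 1 is the lowest SA tumor in 12 of the 14 lists, all but the arginine and neutrophil lists.

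To order the genes by level, the deposited TPM (a share of all transcripts that accounts for transcript length) was used within each group. In WT penis Lyz2 was highest at a mean of 146 TPM, followed by Arg1 at 91.0 and C1qc, C1qb and C1qa at 58.3, 55.7 and 53.5 TPM. The WT samples of the 3 chains overlapped, between 43.7 and 69.9 TPM. In SA tumors Arg1 was first at 421 TPM and Lyz2 second at 243 TPM, followed by Ctss at 78.5 TPM and then C1qb, Tyrobp, C1qc and C1qa within 71.6 to 67.6 TPM, whose samples overlapped widely, from 32.6 to 105 TPM. Clec4d moved from rank 32 of 38 in WT penis to rank 15 in SA tumors and Clec4e from rank 38 to rank 22, while Mgl2 went from rank 16 to rank 30 and Clec10a from rank 11 to rank 26.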

How the data were processed

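Total RNA of 6 fresh tissue samples was sequenced by the authors as stranded 76-nt paired-end libraries. Per the study's methods and processing notes, reads were aligned with TopHat to mm10, checked with FastQC and counted with HTSeq per RefSeq transcript, and the authors tested them with DESeq2. Tool versions and the strand option of the counting are not given in the sources used here. The deposited tables hold raw counts with the authors' FPKM and TPM beside them. FPKM was not used, and the deposited TPM served only to order genes.

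For a symbol with more than 1 transcript row (4914 symbols) the row with the highest mean count was kept. Counts were filtered with filterByExpr (minimum count 10, total 15), TMM-normalized and tested in edgeR 4.0.16 (quasi-likelihood F-test, robust, 3 against 3, two-sided) with Benjamini-Hochberg adjustment over 16336 genes. An exact permutation test of 3 against 3 cannot go below p = 0.1 and was not used. Alternatives were DESeq2 1.42.0, limma 3.58.1 (voom), other scalings and filters, a replicate block, thinning of the deepest library and leaving out each sample; summing a gene's transcript rows was added after seeing the data. Scripts were tested on simulated counts. R was 4.3.3. Replicates were separate mice by their labels. The SE of a log2 fold change came from the edgeR fit, whose dispersion includes variation between mice. An SD was taken over the 3 samples of a group.

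The members and the other lists were chosen with earlier results of these data known. All 38 members are named. From each other list at most 4 genes are named, those with the largest log2 fold change among genes at adjusted p under 0.01 and a mean of at least 1 CPM, together with Smad4, Apc and the defining genes of other cell types (S100a8, S100a9, Csf3r, Cxcr2, Ly6g, Cpa3, Cma1, Kit, Cd3e, Krt5, Krt14). Il34, Trem2, Gpnmb, Ccr2, Ly6c2 and Irf4 lie outside this rule and were named after their values were seen. Ly6g was not matched by symbol and is not analysed here. Exon overlaps and shared 76-base windows were read from GENCODE on GRCm38, the assembly of mm10, and upstream sequences from RefSeq on GRCm38.p6.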

Additional observations from a re-analysis of the deposited data

How the results depend on the processing

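Over 16 alternatives the 38 genes gave 603 log2 fold changes. Of these 522 kept their direction and side of the threshold, 26 lost the call, 28 gained one and 27 changed sign, all in genes without a call; 5 genes had no value at a mean of at least 50 counts. Msr1, Clec7a, Clec4d, Clec4e and Arg1 were called in all 16 and Cd207 in all 15 that gave it a value. The 8 genes higher became 14 under DESeq2 (36.8%, against 21.2% of all tested genes) and 5 to 19 when 1 sample was left out. There were 5 without WT penis 2 or WT penis 3 (13.2%, against 14.2% and 15.5% of all tested genes) and 19 without SA tumor 1 (50% against 19.6%). The 3 lower became 5 under DESeq2 (13.2% against 18.8%) and 1 to 5 when 1 sample was left out. There were 5 without SA tumor 3 (13.2% against 17.6%) and 1 without WT penis 1 or WT penis 3 (2.63%, against 14% and 13.7%). With the fold criterion the 6 higher became 8 by library totals alone and 4 to 7 with 1 sample left out, and the 2 lower became 4 under DESeq2, 1 at a mean of at least 50 counts and 1 to 4 with 1 sample left out (4 without SA tumor 3, 1 without SA tumor 2 or any 1 WT sample). The share of all genes at the fold criterion was taken only in the main fit.

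The samples share replicate numbers, but the numbers did not pair them: deviations of same-numbered samples correlated at -0.16, -0.17 and 0.05, and 1 of 6 samples correlated best with its own number. Under the replicate block 7 genes were higher (18.4%, against 17.2% of all tested genes) and 2 lower (5.26% against 15%), 6 and 1 with the fold criterion. Mgl2 and Fcgr2b lost their calls (edgeR adjusted p = 0.0125 and 0.0328), and 16 instead of 22 had an unadjusted p under 0.05.

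Scaling by library totals alone moved the median of all genes to 0.31, and the split of calls over all genes from 20.1% higher and 17.5% lower to 32.1% and 11.1%. It turned Csf1 to 0.17, C1qa to 0.25, C1qb to 0.28, C1qc to 0.17 and Cd68 to 0.0431, all below that median. Leaving out 1 sample gave ranges across 0 for Csf1r (-0.0077 to 0.71), Csf1 (-0.39 to 0.0508), C1qa (-0.22 to 0.26), C1qb (-0.23 to 0.26), C1qc (-0.35 to 0.19), Mrc1 (-0.0462 to 0.43), Emr1 (-0.29 to 0.30) and Clec9a (-0.54 to 0.54). Emr1, at 0.00, was -0.0194 under DESeq2, -0.0061 with RLE size factors, -0.0017 with the 50 highest genes left out of TMM, -0.007 with no filter, -0.0601 with the replicate block, -0.0141 with the deepest library thinned and -0.0025 with transcript rows summed. The causes were not tested. Depth limits several genes that are read from few counts a library, among them Marco, Clec4e in WT penis, Clec9a and Xcr1. Few counts also underlie Cd207 in SA tumors 1, 2 and 3 (9, 13 and 45), Mgl2 in SA tumor 1 (12) and Clec4d in WT penis 1, 2 and 3 (16, 9 and 7).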
